A study of Mus musculus with 8 samples.

Results

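The genes described here belong to families known for enzymes that cut, release and cross-link extracellular matrix, with their inhibitors: matrix metalloproteinases, TIMP inhibitors, ADAM and ADAMTS proteins, lysyl oxidases, transglutaminases, HTRA and PRSS serine proteases, peptidases of the cell surface and heparanase. Some encode family members without enzyme activity, or proteins that act inside the cell. They were taken by their gene symbols, by a fixed pattern of family names, and 46 of the 3624 genes in the authors' deposited table matched. The expression of these genes was compared by RNA sequencing between 4 samples of cultured astrocytes from Spp1-/- mice of the strain B6.129S6(Cg)-Spp1tm1Blh/J and 4 samples from C57BL/6 wild-type mice. All cultures came from retinas and optic nerves of pups at postnatal day 1 to 3 and grew in DMEM/F12 with serum from fetal calves at 10%. Whether each sample was a separate culture, or pooled pups, is not in the labels, so the deposited p-values rest on a spread between samples that may be technical. Strain origin and genotype cannot be told apart in this design.

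Matrix metalloproteinases are zinc-dependent proteases, made as inactive precursors, that degrade collagens, proteoglycans and other matrix proteins and are held in check by TIMP proteins. ADAM proteins shed the outer parts of membrane proteins, ADAMTS proteases act on procollagens and proteoglycans, and lysyl oxidases and transglutaminases join matrix proteins by covalent links. Spp1 encodes osteopontin, a secreted phosphoprotein that is itself a known substrate of the metalloproteinase stromelysin and of tissue transglutaminase.

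The authors' deposited table holds 1 comparison. For each gene it gives the mean of its normalized counts, the log2 fold change with a standard error, and an adjusted p, with 0 columns of values per sample. Values per sample, depth and overlap between the groups were therefore not analysed here. Spp1, at -5.90 (deposited standard error 0.11) in the authors' deposited table, sets the direction, so positive values are higher in the knockout. Every gene in the table had an adjusted p no higher than 0.0499 and a log2 fold change of 0.58 or more in size, so each of the 46 genes was already a call of the authors. Group means given below as implied means, in normalized counts, were worked out from the deposited mean and fold change with the groups taken as equal in size. The 4 Y-linked genes Ddx3y, Eif2s3y, Uty and Kdm5d spanned log2 fold changes from 5.91 up to 13.26 in the authors' deposited table. In wild type the implied means of Ddx3y and Eif2s3y were both 0.164, against 1605 and 550.1 in knockout samples, so these transcripts were nearly absent from the wild-type mean. Xist was not in the table. Sex of the pups is not in the labels, and a difference in sex between the groups and genotype cannot be told apart in these values. Of 12 astrocyte markers, 6 were in the table, 3 higher and 3 lower. The other 6 markers, among them Slc1a3 and Aldh1l1, had no value to check the labelled cell type against.

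Of the 46 genes, 21 were higher and 25 lower in the knockout. Among all 3624 listed genes, 54.9% were higher and 45.1% lower, against 45.7% and 54.3% of the 46. Of the changes of 1 or more on the log2 scale, 15 were higher (32.6%, against 35.5% of all genes in the table) and 13 were lower (28.3%, against 22.5%). These shares lie near those of the table, so nothing is read from the 46 genes as a whole, and the families are given one by one. The median log2 fold change was 2.04 among the higher genes, against 1.31 for all higher genes of the table, and -1.03 among the lower genes, against -0.998. By name, 169 protein-coding genes of the mouse annotation fall in these families, so 27.2% of them were in the table, against 16.1% of the 21924 protein-coding genes annotated. A gene outside the table may have failed a limit or gone untested, and is nowhere below read as unchanged.

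**Figure D1:**
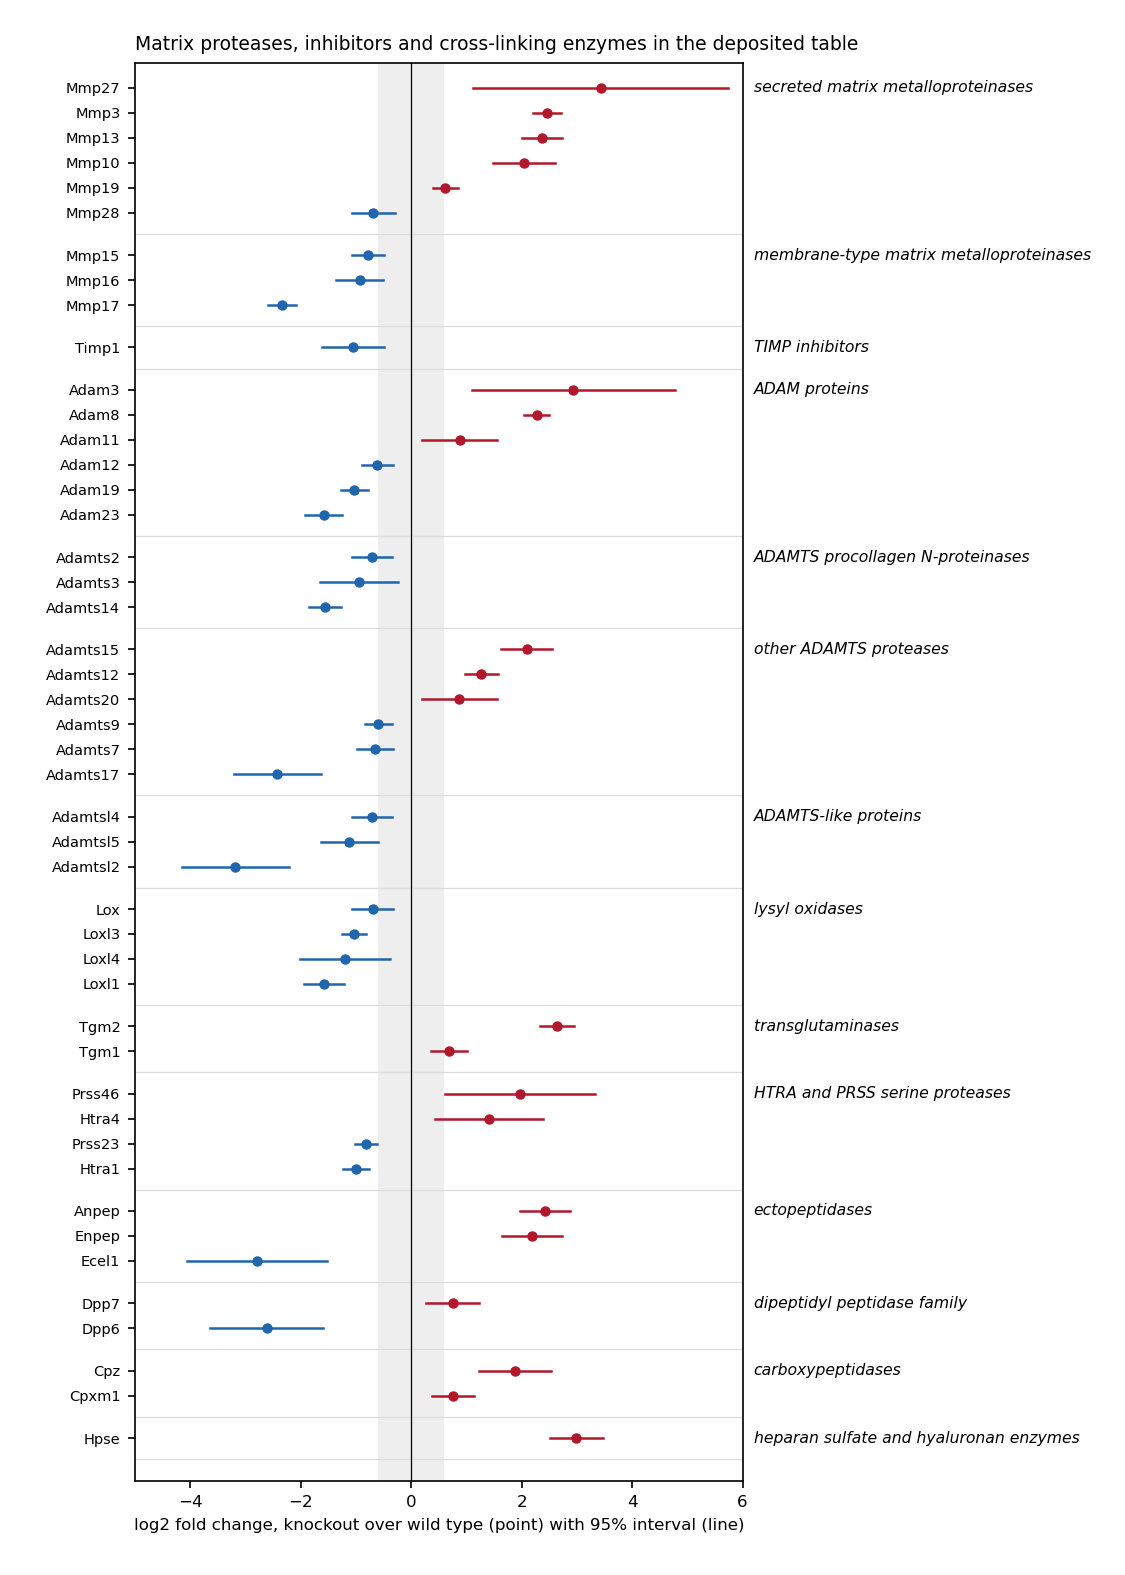
Log2 fold changes of the 46 genes, knockout over wild type (x axis), by family (rows). Points are the deposited values, lines are 95% intervals from the deposited standard errors, and the grey band marks absolute values under 0.58, which the table does not hold. All 4 lysyl oxidases, all 3 membrane-type metalloproteinases and all 3 procollagen N-proteinases lie on the lower side, while 5 of 6 secreted metalloproteinases lie on the higher side. Metalloproteinases and ADAMTS genes were divided into these families after their values were seen.

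Secreted metalloproteinases were mostly higher, 5 of the 6 listed among 15 annotated, and 4 of the 5 higher ones lie in 1 gene cluster. Secreted and membrane-type enzymes were set apart after their values were seen, so the contrast between them is a description only. The cluster on chromosome 9 of GRCm38, from 7272514 to 7699585, holds 9 protein-coding metalloproteinase genes and 0 other protein-coding genes. Mmp13, Mmp3, Mmp10 and Mmp27 were in the table, all 4 higher in the knockout and spread over 309 kb. The other 5, Mmp12, Mmp1b, Mmp8, Mmp20 and Mmp7, were not in the table. The RefSeq promoters of the 4 cluster genes that rose are shown because the listed genes of 1 locus moved in 1 direction. Each runs from 250 bases before to 50 bases after the annotated start, on the plus strand of GRCm38.p6, and capitals mark the AP-1 motif and the TATA box. The AP-1 motif binds dimers of Fos and Jun family proteins, and the TATA box places the start of transcription.
Mmp13, chr9:7272264-7272563: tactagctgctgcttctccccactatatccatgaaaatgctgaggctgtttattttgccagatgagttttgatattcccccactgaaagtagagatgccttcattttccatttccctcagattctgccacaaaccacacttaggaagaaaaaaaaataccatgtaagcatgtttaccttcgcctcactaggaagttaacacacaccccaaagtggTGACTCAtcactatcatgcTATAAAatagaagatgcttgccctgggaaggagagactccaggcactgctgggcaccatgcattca
Mmp3, chr9:7445572-7445871: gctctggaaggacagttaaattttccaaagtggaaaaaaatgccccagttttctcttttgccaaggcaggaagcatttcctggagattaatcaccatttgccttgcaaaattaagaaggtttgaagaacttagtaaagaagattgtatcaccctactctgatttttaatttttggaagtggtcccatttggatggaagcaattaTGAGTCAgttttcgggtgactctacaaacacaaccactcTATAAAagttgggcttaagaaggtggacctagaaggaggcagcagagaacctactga
Mmp10, chr9:7502092-7502391: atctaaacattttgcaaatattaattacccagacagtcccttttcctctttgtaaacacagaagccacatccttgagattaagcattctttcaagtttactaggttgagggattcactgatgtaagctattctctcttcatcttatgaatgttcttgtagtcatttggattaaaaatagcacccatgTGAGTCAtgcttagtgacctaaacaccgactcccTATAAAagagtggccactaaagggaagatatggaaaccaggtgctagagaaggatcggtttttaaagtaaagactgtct
Mmp27, chr9:7571146-7571445: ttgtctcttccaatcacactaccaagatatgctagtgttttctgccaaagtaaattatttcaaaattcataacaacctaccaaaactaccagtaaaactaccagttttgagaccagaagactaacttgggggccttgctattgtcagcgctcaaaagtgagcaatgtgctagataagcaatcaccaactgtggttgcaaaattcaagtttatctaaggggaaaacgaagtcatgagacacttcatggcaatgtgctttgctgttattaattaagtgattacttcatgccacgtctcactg

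The motif letters searched were TGAGTCA for AP-1 and TATAAA for the TATA box, on both strands, and the 2 motifs share no bases in these windows. Mmp3 and Mmp10 hold AP-1 on the plus strand, with its first base 46 and 63 bases before the start, and Mmp13 holds it on the minus strand, 35 bases before the start. A TATA box follows in each, beginning 39 bases after the first base of the AP-1 motif in Mmp3, 34 in Mmp10 and 19 in Mmp13. Its letters begin at unlike distances before the annotated start, 7 bases in Mmp3, 29 in Mmp10 and 16 in Mmp13. Mmp27 holds neither run of letters in this window. Of 32851 RefSeq promoters of the same length, 5.20% hold the AP-1 letters, 13.6% the TATA letters and 0.941% both. Promoters were found for 33 of the 46 genes, and 5 of these hold the AP-1 letters: Mmp3, Mmp10 and Mmp13, which were higher, and Adam19 and Prss23, which were lower. The 33 genes have 44 promoter entries, so this count per gene is not comparable with the shares per promoter above. Adam11, Adam12, Adam3, Adamts15, Adamts7, Htra4, Lox, Loxl1, Loxl3, Mmp16, Mmp17, Mmp19 and Tgm2 were not matched. A match of letters is a description and not a measured binding site.

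AP-1 family genes were split in the same comparison. Of 15 genes encoding Fos, Jun, Maf and related factors, 6 were in the table, 4 higher and 2 lower. Maf, a transcription factor of macrophages among other cells, was higher, at 1.19 (deposited standard error 0.12) in the authors' deposited table. Fosl1, a Fos family member, fell by 1.81 (0.46) in the authors' deposited table. Fos, Jun and Junb were not in the table.

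Mmp3, which encodes stromelysin-1, a protease with many matrix substrates that also activates other metalloproteinases, had an implied mean of 500.0 normalized counts in wild type and 2758 in the knockout. Its log2 fold change was 2.46 (deposited standard error 0.13, 95% interval 2.21 to 2.72, adjusted p = 3.8e-78) in the authors' deposited table, a 5.52-fold higher level. Mmp13, the main interstitial collagenase of rodents, stood at 62.5 in wild type and 323 in the knockout. The authors' deposited table gave it a log2 fold change of 2.37 (standard error 0.18, 95% interval 2.01 to 2.73, adjusted p = 1.2e-35). Mmp10, or stromelysin-2, a close relative of Mmp3, had implied means of 24.4 and 100.4. Its log2 fold change was 2.04 (standard error 0.28, 95% interval 1.49 to 2.60, adjusted p = 1.4e-11) in the authors' deposited table. The intervals of Mmp3, Mmp13 and Mmp10 overlap, so these 3 genes rose by sizes that their errors do not separate.

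Mmp27 was listed at a very low level. Its implied means were 1.58 in wild type and 17.04 in the knockout, and its log2 fold change of 3.43 (standard error 1.18, 95% interval 1.12 to 5.74, adjusted p = 0.015) in the authors' deposited table rests on few counts. Mmp19, a secreted metalloproteinase encoded on chromosome 10, rose by 0.62 (standard error 0.11, 95% interval 0.40 to 0.84, adjusted p = 5.8e-07) in the authors' deposited table, from 846 to 1303. Of its exon bases, 22.3% are shared with Tmem198b on the other strand, and the labels do not say whether reads were counted by strand. Mmp28, or epilysin, was the exception among the listed secreted enzymes, at 428 in wild type and 267 in the knockout. It fell by 0.68 (standard error 0.20, 95% interval -1.08 to -0.29, adjusted p = 0.0040) in the authors' deposited table.

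**Figure D2:**
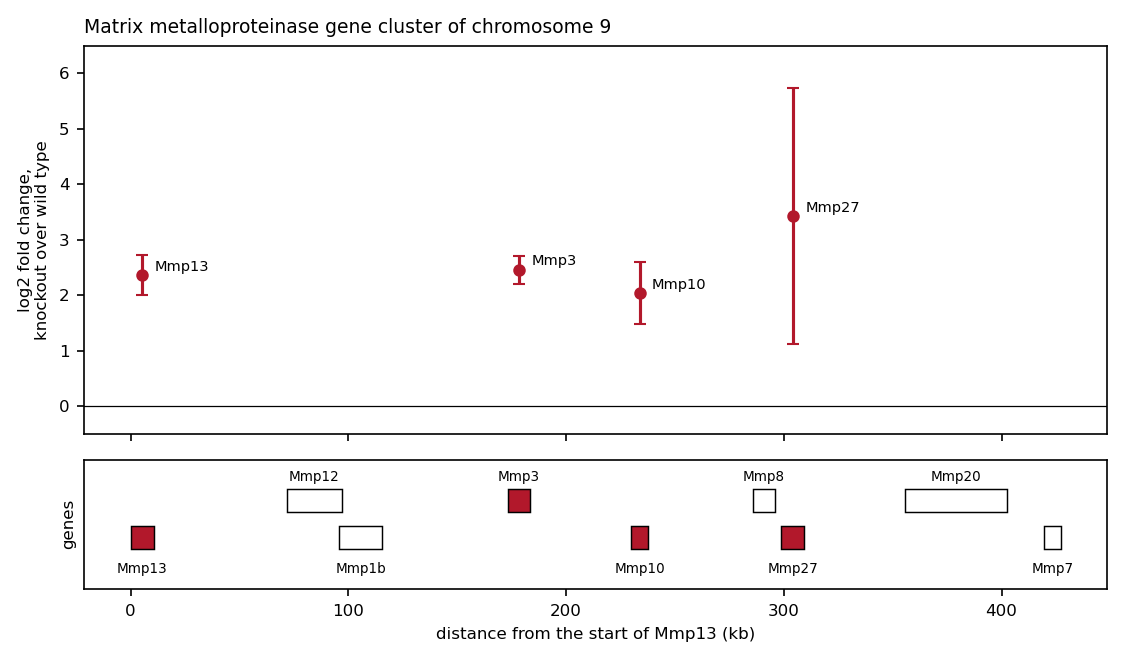
Upper panel: log2 fold change, knockout over wild type, of the cluster genes in the table, with 95% intervals (bars), against distance in kb from the start of Mmp13. Lower panel: the 9 protein-coding genes of the cluster to scale, filled where they were in the table. Mmp3 and Mmp10 are direct neighbours, open genes lie between the other filled ones, and the interval of Mmp27 covers those of Mmp3, Mmp10 and Mmp13.

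Per kilobase of annotated exon, which allows genes to be set side by side, Mmp3 had the highest implied mean of the 6 listed secreted enzymes in both groups, with the other 9 annotated not in the table. Implied means per kilobase in wild type were 278 for Mmp3, 239.6 for Mmp19, 111 for Mmp28, 23.4 for Mmp13, 14.1 for Mmp10 and 0.715 for Mmp27. In the knockout they were 1532 for Mmp3, 369 for Mmp19, 121 for Mmp13, 68.9 for Mmp28, 58.3 for Mmp10 and 7.71 for Mmp27. Mmp13 thus stood below Mmp28 in wild type and above it in the knockout. Without values per sample the spread behind these levels is unknown, and neighbours in the order were not tested.

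Membrane-type metalloproteinases, which are tethered to the cell surface and cut pericellular matrix, were lower in all 3 listed of 6 annotated. Mmp17, held by a lipid anchor, had an implied mean of 1441 in wild type and 285 in the knockout. It fell by 2.34 (standard error 0.13, 95% interval -2.59 to -2.09, adjusted p = 4.0e-72) in the authors' deposited table, a 5.05-fold lower level. Mmp15, with a transmembrane anchor, stood at 2752 and 1595, a log2 fold change of -0.79 (standard error 0.15, 95% interval -1.08 to -0.49, adjusted p = 1.6e-06) in the authors' deposited table. Mmp16, anchored in the same way, went from 534 to 279, with -0.93 (standard error 0.22, 95% interval -1.36 to -0.51, adjusted p = 1.5e-04) in the authors' deposited table. The interval of Mmp17 does not overlap those of Mmp15 and Mmp16. Mmp14, Mmp24 and Mmp25 were not in the table.

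Timp1, the X-linked and readily induced TIMP inhibitor, was lower in the knockout and was the only one of 4 TIMP genes in the table. Its implied mean fell from 2769 to 1339. The log2 fold change was -1.05 (standard error 0.29, 95% interval -1.61 to -0.49, adjusted p = 0.0016) in the authors' deposited table. Per kilobase of exon, Timp1 stood at 3119 against 278 for Mmp3 in wild type, and at 1508 against 1532 in the knockout. The transcript of this protease and that of the inhibitor were thus about level in the knockout and far apart in wild type. Both levels are implied means without a known spread between samples. Timp2, Timp3, Timp4, Mmp2, Mmp9 and Mmp14 were not in the table, so the pair gives no balance of proteases and inhibitors. Of 22 other inhibitors and partners of matrix proteases, 8 were in the table, 3 higher and 5 lower, and the median of their log2 fold changes was -1.01. A2m, the broad protease trap of plasma and tissue, rose by 1.3 (standard error 0.13), and Pi15, a secreted protein with inhibitor activity, by 2.22 (0.28) in the authors' deposited table. Tfpi2, a Kunitz inhibitor bound to matrix, fell by 2.75 (0.48), and Pcolce2, an enhancer of procollagen processing, fell by 1.87 (0.39) in the authors' deposited table; both were picked after their values were seen.

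ADAM genes split evenly, with 3 higher and 3 lower of 33 annotated. Adam8, a sheddase found on myeloid cells among others, went from an implied mean of 1674 to 8088. Its log2 fold change of 2.27 (standard error 0.12, 95% interval 2.04 to 2.50, adjusted p = 7.6e-81) in the authors' deposited table had the smallest adjusted p of the 46 genes. The active proteases Adam12 and Adam19, the meltrins, were lower. Adam12 went from 4721 to 3083, with -0.62 (standard error 0.14, 95% interval -0.89 to -0.34, adjusted p = 1.2e-04), in the authors' deposited table. Adam19 went from 2054 to 1009, with -1.03 (standard error 0.12, 95% interval -1.27 to -0.78, adjusted p = 3.9e-15), in the authors' deposited table. The 3 active ADAM proteases in the table were therefore not of 1 direction.

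The other 3 ADAM genes encode proteins without protease activity. Adam23, a neuronal adhesion protein, went from 783 to 261, with -1.59 (standard error 0.17, 95% interval -1.92 to -1.26, adjusted p = 1.5e-19), in the authors' deposited table. Adam11, also known mainly from neurons, moved the other way, from 161 to 296, with 0.88 (standard error 0.34, adjusted p = 0.037), in the authors' deposited table. Neuron markers were lower beside Adam23: 7 of 10 were in the table and all 7 fell, their summed implied mean going from 15182 to 6274, while Rbfox3, Snap25 and Syt1 were not in the table. Thy1, with implied means of 12573 in wild type and 5253 in the knockout, made up most of both sums. The part of these markers in the Adam23 value was not tested. Adam3, a sperm surface protein, was listed at 1.60 and 12.2, with a log2 fold change of 2.94 (standard error 0.94) in the authors' deposited table that rests on few counts.

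All 3 procollagen N-proteinases, the ADAMTS enzymes that remove the amino-terminal propeptide of fibrillar procollagens, were lower, and these are all the genes annotated in that group. The group was set apart from the other ADAMTS proteases after the values were seen. Adamts14 had implied means of 1446 in wild type and 490.1 in the knockout, and fell by 1.56 (standard error 0.15, 95% interval -1.85 to -1.27, adjusted p = 1.1e-23) in the authors' deposited table. Adamts2 went from 615 to 377, with -0.70 (standard error 0.18, 95% interval -1.07 to -0.34, adjusted p = 8.8e-04), in the authors' deposited table. Adamts3 went from 88.9 to 46.2, with -0.94 (standard error 0.36, 95% interval -1.64 to -0.24, adjusted p = 0.031), in the authors' deposited table. Their summed implied mean in the knockout was 42.5% of that in wild type. The C-proteinases that remove the other end, Bmp1, Tll1 and Tll2, were not in the table.

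The remaining ADAMTS proteases were 3 higher and 3 lower of 16 annotated. Adamts15, a proteoglycan-cleaving enzyme, went from 336 to 1432, with 2.09 (standard error 0.23, 95% interval 1.63 to 2.55, adjusted p = 1.5e-17), in the authors' deposited table. Adamts20 and Adamts9, relatives of each other that cleave the proteoglycan versican, moved in opposite directions. Adamts20 went from 51.6 to 94.7, with 0.87 (standard error 0.35, adjusted p = 0.040, the largest of the 46), and Adamts9 from 756 to 499.6, with -0.60 (0.13, 95% interval -0.84 to -0.35, adjusted p = 1.8e-05), in the authors' deposited table. Adamts12 and Adamts7, a related pair known to cleave cartilage oligomeric matrix protein, were also opposite. Adamts12 went from 367 to 886, with 1.27 (standard error 0.15, 95% interval 0.98 to 1.56, adjusted p = 9.1e-16), and Adamts7 from 389 to 247, with -0.66 (0.17, adjusted p = 5.5e-04), in the authors' deposited table. Adamts17, linked to fibrillin microfibrils, fell by 2.42 (standard error 0.40, 95% interval -3.21 to -1.64, adjusted p = 2.6e-08) in the authors' deposited table, from an implied mean of 66.9 to 12.5.

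ADAMTS-like proteins lack the protease domain and bind fibrillin microfibrils, and all 3 in the table, of 5 annotated, were lower. Adamtsl2 had the largest fall of the 46 genes, from an implied mean of 142 to 15.6, with -3.18 (standard error 0.49, 95% interval -4.15 to -2.22, adjusted p = 1.9e-09) in the authors' deposited table. Adamtsl5 went from 416 to 191, with -1.12 (standard error 0.26, 95% interval -1.63 to -0.61, adjusted p = 1.4e-04), in the authors' deposited table. Adamtsl4 went from 1376 to 839, with -0.71 (standard error 0.18, 95% interval -1.08 to -0.35, adjusted p = 7.3e-04), in the authors' deposited table. Fbn1, the fibrillin of these microfibrils, fell by 1.27 (standard error 0.17) in the authors' deposited table.

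**Figure D3:**
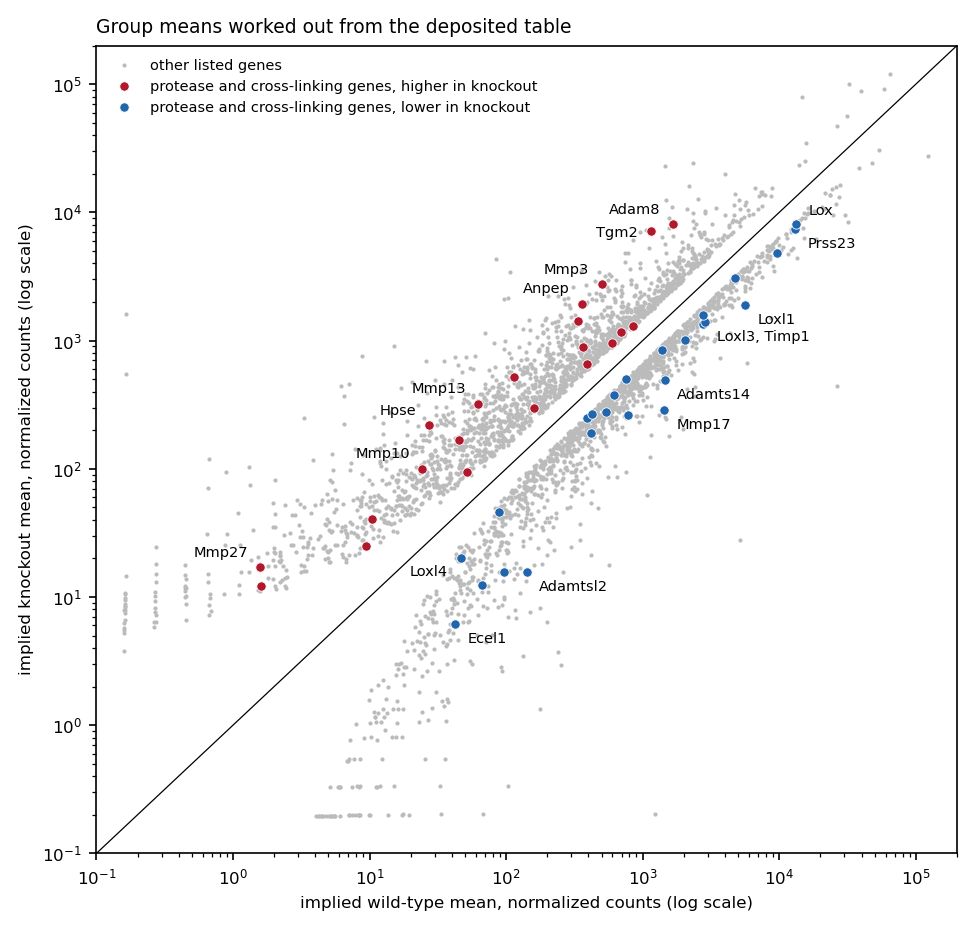
Implied mean normalized counts in wild type (x axis, log scale) and knockout (y axis, log scale). Each point is 1 gene, with the 46 protease and cross-linking genes in colour, the other genes of the table in grey, and the line of equality in black. Lox, at 13199 and 8143, and Prss23 lie among the highest of the lower genes, and Adam8 and Tgm2 lead the higher ones.

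Lysyl oxidases, the copper enzymes that start covalent cross-links in collagen and elastin, were lower in all 4 listed of 5 annotated. Lox, the founding member, had the largest mean normalized count of the 46 genes, not scaled by length, with an implied mean of 13199 in wild type and 8143 in the knockout. It fell by 0.70 (standard error 0.19, 95% interval -1.07 to -0.33, adjusted p = 0.0014) in the authors' deposited table, a 1.62-fold lower level. Loxl1, which acts on elastic fibres, went from 5645 to 1892, with -1.58 (standard error 0.18, 95% interval -1.93 to -1.22, adjusted p = 1.2e-16), in the authors' deposited table, a 2.98-fold lower level. Loxl3 and Loxl4 carry scavenger receptor domains. Loxl3 went from 2847 to 1393, with -1.03 (standard error 0.11, 95% interval -1.25 to -0.82, adjusted p = 2.6e-19), in the authors' deposited table. Loxl4 went from 46.4 to 20.3, with -1.19 (standard error 0.42, 95% interval -2.01 to -0.38, adjusted p = 0.017), in the authors' deposited table. Loxl2 was not in the table.

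The order of the lysyl oxidases per kilobase of exon was the same in both groups. In wild type the implied means per kilobase were 2762 for Lox, 1712 for Loxl1, 619 for Loxl3 and 11.02 for Loxl4. In the knockout they were 1704 for Lox, 574 for Loxl1, 303 for Loxl3 and 4.82 for Loxl4. The summed implied mean of the 4 genes in the knockout was 52.7% of that in wild type. The interval of Loxl1 does not overlap that of Lox, while the intervals of Loxl3 and Loxl4 overlap that of Lox.

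Transglutaminases, which link glutamine to lysine side chains, were higher in both listed genes of 7 annotated, of which Tgm2 is the one known to act on matrix. Tgm2, tissue transglutaminase, went from an implied mean of 1145 to 7131. The authors' deposited table gave it a log2 fold change of 2.64 (standard error 0.16, 95% interval 2.34 to 2.94, adjusted p = 1.9e-62), a 6.23-fold higher level. Of its exon bases, 8.03% are shared with Rprd1b and 13.7% with Gm20412, both on the other strand. Tgm1, best known from keratinocytes, rose by 0.68 (standard error 0.17, 95% interval 0.35 to 1.01, adjusted p = 3.9e-04) in the authors' deposited table, from 595 to 955.

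Listed genes of collagen-modifying enzymes and partner proteins, such as the chaperone gene Serpinh1, were lower, beside the lysyl oxidases and N-proteinases. Most of these proteins act on collagen chains inside the cell. Of 16 genes, 7 were in the table and all 7 fell, by a median of -0.78 on the log2 scale. Pxdn, the peroxidase that cross-links basement membrane collagen outside the cell, fell by 1.23 (standard error 0.11), and P3h1, a prolyl hydroxylase of collagen, fell by 0.92 (0.14) in the authors' deposited table. Among 24 fibrillar and elastic substrates, 15 were in the table, 4 higher and 11 lower, and their median was -0.83. Col5a2, a fibrillar collagen chain, fell by 1.16 (standard error 0.09), and Ltbp2, a protein of microfibrils, fell by 1.27 (0.11) in the authors' deposited table. Elastin, encoded by Eln, fell by 0.83 (standard error 0.15), while the collagen chain gene Col3a1 rose by 0.84 (0.14), in the authors' deposited table. Among 27 basement membrane and proteoglycan substrates, 10 were in the table, 2 higher and 8 lower, with a median of -1.03. Ncan, the proteoglycan neurocan, fell by 1.69 (standard error 0.12), and Tnr, a tenascin of neural matrix, fell by 1.72 (0.18) in the authors' deposited table. In these lists 7 of 7, 11 of 15 and 8 of 10 genes were thus lower, beside 45.1% over the table.

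Serine proteases of the HTRA and PRSS families were 2 lower at high levels and 2 higher at low levels, of 43 annotated. Prss23, a secreted serine protease, went from an implied mean of 13055 to 7391, with -0.82 (standard error 0.10, 95% interval -1.02 to -0.62, adjusted p = 2.1e-14), in the authors' deposited table. Of its exon bases, 22.9% are shared with the antisense gene Prss23os. Htra1, a secreted protease with matrix and growth factor substrates, went from 9626 to 4828, with -0.996 (standard error 0.12, 95% interval -1.23 to -0.76, adjusted p = 8.5e-15), in the authors' deposited table. Htra4 went from 9.41 to 25.04, with 1.41 (standard error 0.50, 95% interval 0.43 to 2.39, adjusted p = 0.0196), in the authors' deposited table, and 32.9% of its exon bases are shared with a gene on the other strand. Prss46 went from 10.3 to 40.4, with 1.97 (standard error 0.69, 95% interval 0.61 to 3.32, adjusted p = 0.019), in the authors' deposited table. Per kilobase of exon, the implied wild-type means were 3466 for Prss23, 3343 for Htra1, 7.68 for Prss46 and 3.92 for Htra4. The 2 genes that rose therefore stood far below the 2 that fell.

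Plasminogen activation and cathepsins, which lie outside these families, were also described. Of 9 plasminogen system genes, 3 were in the table, 1 higher and 2 lower. Plau, the urokinase gene, rose by 1.92 (standard error 0.14), while its receptor gene Plaur fell by 0.96 (0.29), in the authors' deposited table. Urokinase and its receptor thus moved in opposite directions. Of 14 cathepsin genes, 9 were in the table and all 9 were higher, with a median log2 fold change of 0.91. Ctss, abundant in macrophages, rose by 2.21 (standard error 0.19), and Ctsc, which activates serine proteases of immune cells, by 1.37 (0.13) in the authors' deposited table.

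Peptidases of the cell surface were led by 2 aminopeptidases that rose. Anpep, aminopeptidase N, went from an implied mean of 361 to 1941, with 2.43 (standard error 0.23, 95% interval 1.98 to 2.88, adjusted p = 3.4e-24), in the authors' deposited table. Enpep, aminopeptidase A, which cuts angiotensin peptides, went from 114 to 518, with 2.19 (standard error 0.28, 95% interval 1.65 to 2.73, adjusted p = 7.5e-14), in the authors' deposited table. Ecel1, a neuronal relative of endothelin-converting enzyme, went from 42.5 to 6.16, with -2.79 (standard error 0.65, 95% interval -4.05 to -1.52, adjusted p = 1.4e-04), in the authors' deposited table. Dpp6, a channel subunit without peptidase activity known from neurons, went from 95.8 to 15.7, with -2.61 (standard error 0.52, 95% interval -3.64 to -1.59, adjusted p = 5.8e-06), in the authors' deposited table. Neuron markers fell in 7 of 7 listed beside Ecel1 and Dpp6, and their part in these falls was not tested. Dpp7, a dipeptidyl peptidase of vesicles and lysosomes, rose by 0.75 (standard error 0.25, 95% interval 0.27 to 1.24, adjusted p = 0.011) in the authors' deposited table, from 393 to 661.

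Both listed carboxypeptidase genes, of 4 annotated, were higher. Cpz, a secreted carboxypeptidase with a Wnt-binding domain, went from 45.5 to 168, with 1.89 (standard error 0.33, 95% interval 1.23 to 2.54, adjusted p = 2.1e-07), in the authors' deposited table. Cpxm1, a relative without known enzyme activity, went from 691 to 1170.3, with 0.76 (standard error 0.19, 95% interval 0.39 to 1.13, adjusted p = 4.9e-04), in the authors' deposited table.

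Hpse, or heparanase, the enzyme that cuts heparan sulfate chains, was the only listed gene of 10 that act on heparan sulfate or hyaluronan. Its implied mean rose from 27.3 to 218. The log2 fold change was 2.99 (standard error 0.25, 95% interval 2.51 to 3.47, adjusted p = 4.3e-32) in the authors' deposited table, a 7.96-fold higher level. Hspg2, which encodes perlecan, a heparan sulfate proteoglycan of basement membranes, fell by 0.75 (standard error 0.13) in the authors' deposited table. Hpse lies 3.72 Mb from Spp1 on chromosome 5, at 100679484 to 100719716, and was the only one of the 46 genes within 5 Mb of it. Of 97 protein-coding genes within 5 Mb of Spp1, Hpse included, 16 were in the table (16.5%, against 16.1% of all protein-coding genes). Of these 16, 13 were higher and 3 lower (81.25% higher, against 54.9% over the table), and their median log2 fold change was 1.73, against 0.66 over the table. The part of the chromosome region around Spp1 in the Hpse value was not tested.

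Markers of other cell types moved beside these families. All 16 microglia and macrophage markers were in the table and higher, with log2 fold changes of 1.42 to 4.36 and a summed implied mean that went from 34835 to 175799. Mrc1, the mannose receptor, rose by 4.36 (standard error 0.13), and Mpeg1, a pore-forming macrophage protein, by 2.30 (0.09) in the authors' deposited table. Of the 21 higher genes among the 46, 13 had log2 fold changes within that range (61.9%), against 42.3% of all higher genes of the table. The range came from these same data, and a similar size of change does not tell which cells a transcript came from. Of 13 fibroblast and meningeal markers, 10 were in the table, 9 higher and 1 lower, with a summed implied mean from 39536 to 84797. Dcn, or decorin, rose by 2.87 (standard error 0.16), and Fbln1, a fibulin, by 1.86 (0.11) in the authors' deposited table. Col1a1 and Col1a2 were not in the table. Of 8 pericyte and smooth muscle markers, 3 were in the table and all 3 fell, from a summed implied mean of 90159 to 46932, while Pdgfrb and Rgs5 were not in the table. Oligodendrocyte lineage markers gave 1 higher and 8 lower, Schwann cell markers 1 and 6, and Müller glia and retinal progenitor markers 0 and 6. Endothelial markers gave 2 higher and 0 lower, and pigment epithelium and melanocyte markers 2 and 1. In bulk cultures, fewer cells of a type and less RNA per cell cannot be told apart, and the part of these markers in the protease values was not tested.

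**Figure D4:**
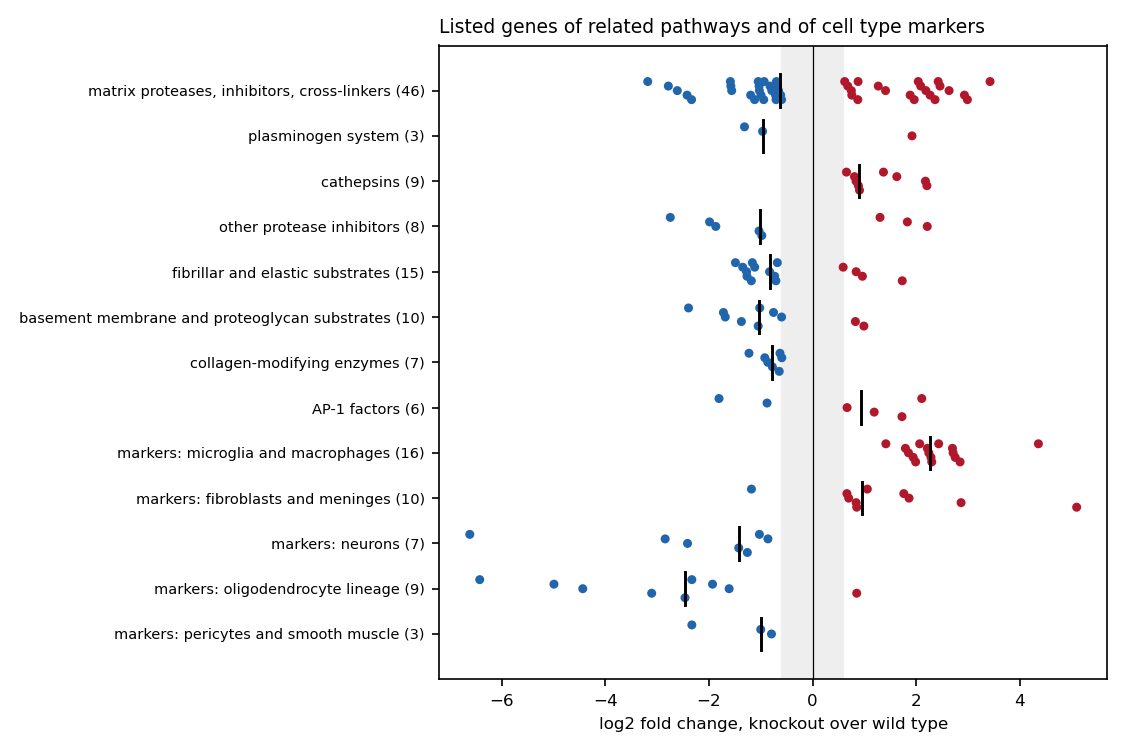
Log2 fold changes, knockout over wild type (x axis), of the genes in the table from the 46 protease and cross-linking genes, from pathway lists and from cell type markers (rows, number of listed genes in brackets). Points are genes, black bars are medians, and the grey band marks values the table does not hold. All 7 genes in the row of collagen-modifying enzymes, which also holds partner proteins, lie on the lower side. All 9 cathepsins and all 16 macrophage markers lie on the higher side.

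The precision behind single genes varied widely. Deposited standard errors of the 46 genes ran from 0.10 to 1.18 on the log2 scale, with a median of 0.20 against 0.24 for the whole table. Mean normalized counts ran from 6.90 for Adam3 to 10671 for Lox, and 12 of the 46 genes had a mean under 100. Of the 15 genes with a mean of at least 1000, 5 were higher and 10 lower. The same count over all genes of the table was not made, so no link between level and direction is read from it. Adamts9 (-0.60), Adam12 (-0.62) and Mmp19 (0.62) lay nearest to the fold-change limit of the authors' deposited table.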

How the data were processed

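Total RNA of 8 samples of cultured astrocytes (4 wild type, 4 Spp1 knockout) was sequenced. Per the submitters' processing notes, DESeq2 1.30.1, STAR 2.7 and CASAVA 1.8 were used with GRCm38, in steps that are not described. For annotation, counting and filters the sources used here give nothing. The deposited table gives, per the file headers, a mean normalized count (a signal averaged over all samples), a fold change in log2 units and its standard error, a Wald statistic (a score), and raw and adjusted p-values per gene. The authors' fold change equalled the Wald statistic times its standard error, to within 1.51e-07 on the score.

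Implied group means, 95% normal intervals, counts and medians were computed with Python 3.11.15, pandas 2.3.3 and scipy 1.17.1, and tested on simulated data. Genes were matched by symbol to GENCODE vM21 (GRCm38) for coordinates and exon length, and promoters to RefSeq (GRCm38.p6). No test across samples was made, because the table has no values per sample; the calls are the authors'. The genes, lists and families were chosen with earlier results of these data known. Metalloproteinases and ADAMTS genes were divided into smaller families after their values were seen. All 46 genes are named, with full values for the TIMP and lysyl oxidase genes and for those with the 4 smallest adjusted p-values in a family; pathway lists name up to 2 with the smallest, some of which are not reported here, and other names were picked after their values were seen. Alternatives were stricter limits on fold, adjusted p, mean count and interval, and a weighted mean. Another was a set without Adam3, Adam11, Adam23, Dpp6, Dpp7 and Tgm1.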

Additional observations from a re-analysis of the deposited data

How the results depend on the processing

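The counts of 21 higher and 25 lower genes were 14 and 20 at an adjusted p of at most 0.001. They were 15 and 19 at a mean normalized count of at least 100. With Adam3, Adam11, Adam23, Dpp6, Dpp7 and Tgm1 left out, they were 17 and 23. The genes left out include cell surface proteins, so this is not a count of extracellular proteins. For changes of 1 or more on the log2 scale the counts were 15 and 13. With the 95% interval wholly beyond the fold-change limit they were 14 and 13. The median log2 fold change of -0.64 (0.66 over all genes of the table) reversed to 1.34 and 1.27 under these 2 limits, against 1.23 and 1.25 over all genes. A table without values near 0 has a median on whichever side holds more genes. The mean weighted by the inverse squared standard error was -0.030. The pathway lists went from 23 higher and 35 lower to 12 and 20 at the fold limit of 1, and to 14 and 19 at the interval limit. Of the single genes, 12 missed an adjusted p of 0.001, among them Lox, Loxl4, Timp1 and Mmp27, and 19 had an interval that reached inside the fold-change limit, among them Lox, Timp1, Mmp15 and Mmp16.

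No paired analysis was possible because the table has no columns per sample. Leaving out replicates, other size factors and a low-count filter were not run for the same reason, and depth per sample is unknown.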

Other observations

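Some of the 46 genes share exon bases with another annotated gene. In GENCODE vM21 this holds for 13 of them, in 17 pairs, all 17 on opposite strands. The labels do not say whether reads were counted by strand, so reads of such pairs may not be separable. The largest shares were in Htra4 (32.9%), Prss23 (22.9%) and Mmp19 (22.3%), and Loxl3 shares 11.6% with Htra2, which was not in the table.

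Kdm5c, an X-linked gene that is expressed from both X chromosomes in females, had a log2 fold change of -0.62 (standard error 0.11) in the authors' deposited table. Timp1, the only X-linked gene of the 46, stood at -1.05 in the authors' deposited table. Sex was not in the labels, and its part in the Timp1 value was not tested.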
